A study of Mus musculus with 8 samples.

Results

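Scd1, the gene of stearoyl-coenzyme A desaturase 1, was measured by 1 of the 20532 elements of a spotted mouse cDNA array, platform probe 2935, in kidneys of the mutant mouse lines Umod A227T and Umod C93F. The element was taken by its gene symbol in the platform annotation, which 12567 elements have, and the gene was chosen by its high ratio of mutant over wild-type signal in both lines. The ratios of Scd1 are therefore a description without a test. No second element carried the symbol Scd1, so no comparison between elements of the gene could be made. RT-qPCR and protein measurements of the study were not analysed here.

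SCD1 is an enzyme of the endoplasmic reticulum membrane that introduces a double bond into saturated fatty acids, with stearate and palmitate as its main substrates and oleate and palmitoleate as its products. It receives its electrons from NADH through cytochrome b5 reductase and cytochrome b5. Its gene is a well-known target of the transcription factors SREBP1c and LXR in liver, where insulin and dietary carbohydrate raise its transcription, and it is abundant in adipose tissue. The series title places SCD1 of the kidney in the S3 segment, the straight part of the proximal tubule, next to the thick ascending limb, the segment that produces uromodulin.

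RNA of whole kidney of 4 male homozygous Umod A227T mice and 4 male heterozygous Umod C93F mice was hybridised together with a pool of male wild-type RNA of the same line, on 16 arrays, 2 per mouse with exchanged dyes. Both lines arose by ENU mutagenesis on the C3HeB/FeJ background and carry a point mutation in Umod, the uromodulin gene, so the level of its transcript does not check the genotype. For A227T mice the label states an age of 19 and the methods 17 weeks, and for C93F mice the label states 39 and the methods 38 weeks, the labels naming no unit. The pool was made from 6 control animals per the labels, while the methods name 4 wild-type littermates. The pool counts as 1 control sample of its line, so variation among wild-type animals enters no p-value. Each line had its own age, zygosity, pool and series of hybridisations, and these cannot be told apart from the mutation. The direction of the ratios, with mutant on top, rests on the processed ratios and legends of the study and is likely but not settled: the names of the scans, read literally, would turn every ratio round. In whole kidney, more RNA per cell and more cells of the expressing type cannot be told apart.

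The Scd1 ratio was high in all 8 mice. In kidneys of Umod A227T mice the log2 ratio of mutant over pool was 1.17, 0.93, 1.41 and 0.86, with a mean of 1.09 ± 0.25 (SD, n = 4), which is 2.13-fold. In kidneys of Umod C93F mice it was 0.90, 1.11, 0.87 and 0.80, with a mean of 0.92 ± 0.13 (SD, n = 4), which is 1.89-fold. The size of the C93F ratio depended on the background treatment, as described below. As folds, the A227T mice lay between 1.82 and 2.65 and the C93F mice between 1.74 and 2.16. The ranges of the lines overlapped, with 3 of 4 C93F mice inside the range of the A227T mice, and the line means differed by 0.17 on the log2 scale (SE 0.11, A227T minus C93F). A consistent sign was common among the elements tested, since 15.4% of them were above 0 in all 4 A227T mice and 20% in all 4 C93F mice. Between mice, Scd1 varied more than most elements: its SD was higher than that of 85.0% of the elements tested in A227T, where the median SD was 0.15, and of 80.9% in C93F, where it was 0.089.

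**Figure D1:**
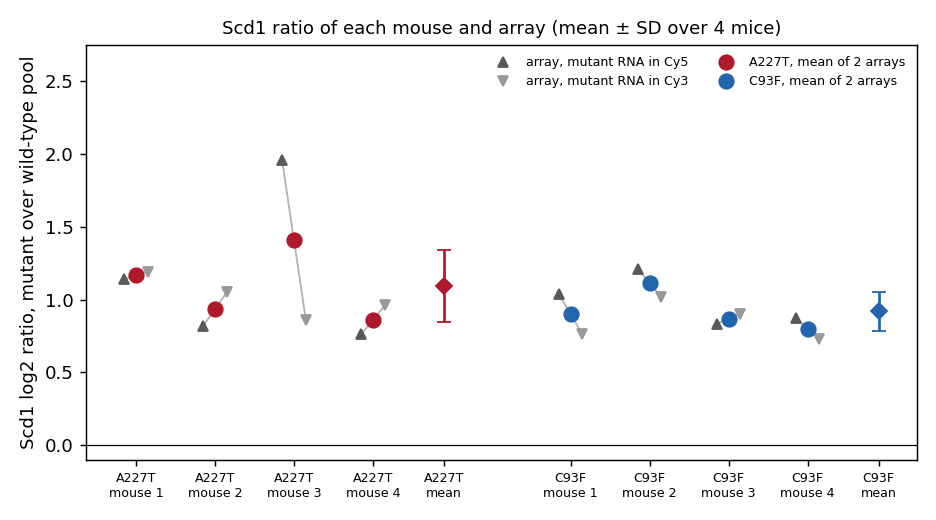
Log2 ratio of Scd1, mutant over wild-type pool, for each mouse of Umod A227T and Umod C93F: circles are the mean of the 2 arrays of a mouse, triangles the single arrays, diamonds with bars the mean ± SD over 4 mice. All 16 arrays lie above 0, and the widest gap between arrays is that of A227T mouse 3.

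Every array gave a positive ratio for Scd1, in either dye orientation. With the mutant RNA in Cy5, the log2 ratio of the A227T mice was 1.14, 0.82, 1.96 and 0.76 (mean 1.17 ± 0.55, SD, n = 4). With the mutant RNA in Cy3, it was 1.19, 1.05, 0.86 and 0.96 (mean 1.02 ± 0.14). In the C93F mice the ratio was 1.04, 1.21, 0.84 and 0.87 with the mutant RNA in Cy5 (mean 0.99 ± 0.17, SD, n = 4), and 0.76, 1.02, 0.90 and 0.73 with it in Cy3 (mean 0.85 ± 0.13). The mean gap between orientations was 0.15 in A227T and 0.14 in C93F, against a median absolute gap over the tested elements of 0.23 in A227T and 0.32 in C93F. Arrays of one orientation correlated across elements with r between 0.28 and 0.52 in A227T and between 0.59 and 0.77 in C93F. Arrays of opposite orientation were not compared in this way. Whether any array ran against the others of its line was thus not tested.

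A227T mouse 3 had the highest Scd1 ratio of the 8 mice and the widest gap between its arrays. These gave 1.96 and 0.86, a gap of 1.09, while the arrays of the other A227T mice differed by at most 0.23. The scanner software reports the median as well as the mean of the pixels of a spot. On the second array of this mouse the Scd1 spot had a median foreground of 483 but a mean of 1130 in the mutant channel, and a median of 226 and a mean of 314 in the pool channel. On its first array the median was 2207 and the mean 2246 in the mutant channel, and the spot diameter was 80, against 120 to 150 on the other 15 arrays, in the unit of the scanner. With mean in place of median foreground, the arrays of this mouse gave 1.83 and 1.59, and the line means were 1.26 ± 0.35 in A227T and 0.87 ± 0.18 in C93F (SD, n = 4 each). The mean foreground was added after the spot values were seen. Without mouse 3 the A227T mean was 0.99.

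The absolute signal of the Scd1 spot differed strongly between the hybridisation series. On A227T arrays the foreground was 6.80 to 23.2 times the local background in the mutant channel and 2.86 to 5.79 times in the pool channel, and on 8 of 8 arrays both channels were at least 2 times as bright as the background. On C93F arrays it was 2.44 to 4.41 times the background in the mutant channel and 1.48 to 2.24 times in the pool channel. That factor of 2 was reached by the C93F mutant channel on 8 of 8 arrays and by its pool channel on 4 of 8. After subtraction of the background, 412 to 2112 units remained in the mutant channel and 147 to 543 in the pool channel of A227T arrays, compared with 122 to 262 in the mutant channel and 51 to 131 in the pool channel of C93F arrays. The wild-type level of Scd1 in the C93F series was thus measured near its background. The spot was neither saturated nor marked by the scanner software on any array.

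**Figure D2:**
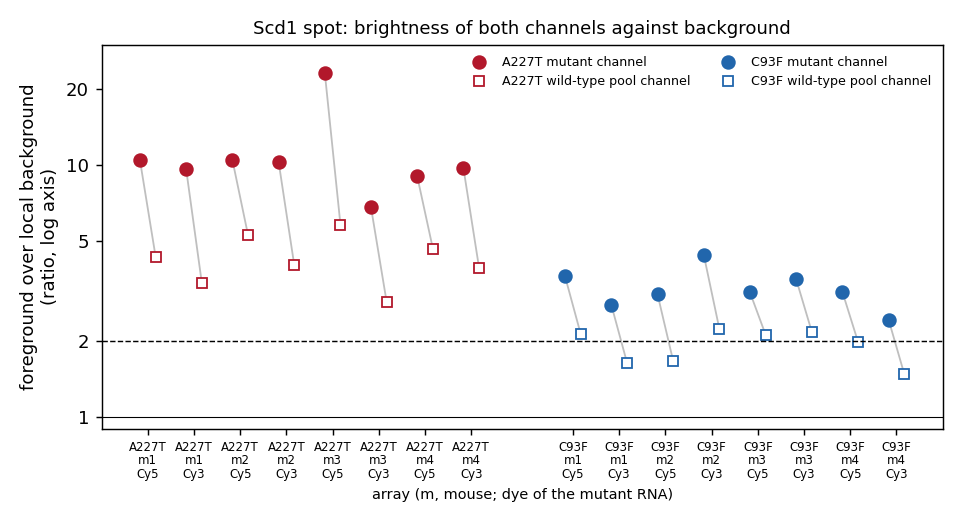
Foreground over local background of the Scd1 spot (log axis) on each of the 16 arrays, with the mutant channel as filled circles and the wild-type pool channel as open squares, and a dashed line at 2 times the background. The mutant channel is above the pool channel on every array, and the pool channel of C93F lies between 1.48 and 2.24.

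Within its own array the spot was bright in the mutant channel and less so in the pool channel, above all in C93F. The mutant channel of Scd1 ranked between the 93.3 and 98.9 percentile of the spots of the channel on A227T arrays and between 92.5 and 96.5 on C93F arrays. The pool channel ranked between 79.5 and 94.4 on A227T arrays and between 43.4 and 83.5 on C93F arrays. The share of pixels more than 2 SD above the background was 57 to 92% in the mutant channel and 44 to 76% in the pool channel on A227T arrays. On C93F arrays this share was 14 to 82% in the pool channel. In the mutant channel of C93F it was 93 to 100% on 6 arrays, 45% on the second array of mouse 1 and 0% on the second array of mouse 4. This array of mouse 4 also gave the lowest ratio of the C93F arrays, 0.73.

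Among the elements bright enough to test, Scd1 lay at or near the top by mean ratio in both lines. It was chosen for its high ratios, so these ranks describe the choice and are no evidence. An element was tested where its foreground reached 2 times the background in 1 or both channels on both arrays of at least 3 mice, which 9196 elements did in A227T and 3292 in C93F. By mean log2 ratio Scd1 ranked 2nd of 9196 in A227T, below Lcn2, a marker of injured tubule, with 1.61 ± 0.18 (SD, n = 4), and above Fn1, the extracellular matrix protein fibronectin, with 0.93 ± 0.06, and Gsto1, a glutathione transferase, with 0.90 ± 0.29. Its rank in single A227T mice was 3, 8, 2 and 11. In C93F it ranked first of 3292 in each of the 4 mice. It passed the filter there through its mutant channel, since its pool channel reached 2 times the background on 4 of 8 arrays. The elements that followed its 0.92 in C93F had less than this by over 0.4: an element without a gene name with 0.45 ± 0.09 and Serpina1d, a protease inhibitor of the alpha-1-antitrypsin family, with 0.43 ± 0.16. By absolute size of the ratio Scd1 ranked 3 in A227T and 6 in C93F, behind elements with negative ratios in C93F.

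**Figure D3:**
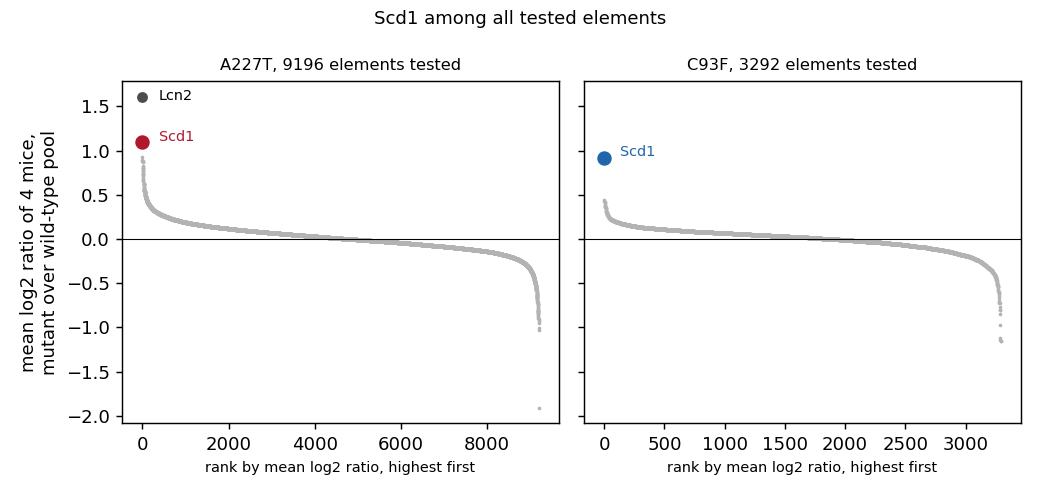
Mean log2 ratio over 4 mice of every tested element, ranked from the highest, in Umod A227T (9196 elements) and Umod C93F (3292 elements). Scd1, chosen for its high ratios, follows Lcn2 in A227T and lies above the other tested elements in C93F.

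An element was called where limma gave an adjusted p under 0.1 (Benjamini-Hochberg, over all tested elements) and the fold was above 1.4. In A227T 165 elements were called, 74 higher (0.805%) and 91 lower (0.99%). Together these were 1.79% of the elements tested in A227T. In C93F 33 were called (1%), of which 1 was higher (0.0304%), namely Scd1, and 32 were lower (0.972%). Of the 2186 elements tested in both lines, Scd1 was the one called higher in both (0.0457%), while 2 were called lower in both (0.0915%) and 1 was called in opposite directions (0.0457%). As Scd1 was chosen for this pattern, the count carries no weight as evidence. Under a stricter filter, with both channels at least 2 times the background on all arrays, Scd1 stayed among the tested elements in A227T and dropped out in C93F, where limma then called 0 of 958 elements higher, with 224 higher at an unadjusted p under 0.05.

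The size of the Scd1 ratio in C93F, and with it the order of the lines, depended on how the background was treated. With local background subtraction the mean was 1.22 in A227T and 1.29 in C93F, and with the normexp correction without its offset of 50 it was 1.20 and 1.28. Without any background correction it was 1.02 in A227T and 0.74 in C93F. The offset of 50 is added to both channels, while the pool channel of the C93F arrays held 51 to 131 units above background. Before normalization, the background-subtracted log2 ratio averaged 1.51 over the A227T arrays and 1.32 over the C93F arrays. The processed ratios deposited by the authors were 1.41, 1.14, 1.75 and 1.06 in the A227T mice (mean 1.34 ± 0.31, SD, n = 4) and 1.61, 1.38, 1.28 and 1.18 in the C93F mice (mean 1.36 ± 0.18). In the columns of C93F mice 1 and 2, the processed ratios followed the scans of the other mouse more closely (r = 0.87 for both) than those of their own (r = 0.53 and 0.49), whereas the remaining 6 mice gave r between 0.89 and 0.97 with their own scans. Over 10 alternatives the Scd1 mean lay between 1.02 and 1.34 in A227T, or 2.02- to 2.53-fold, and between 0.74 and 1.36 in C93F, or 1.67- to 2.57-fold. The difference between lines ran from -0.08 to 0.39, so no order of the lines can be given.

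**Figure D4:**
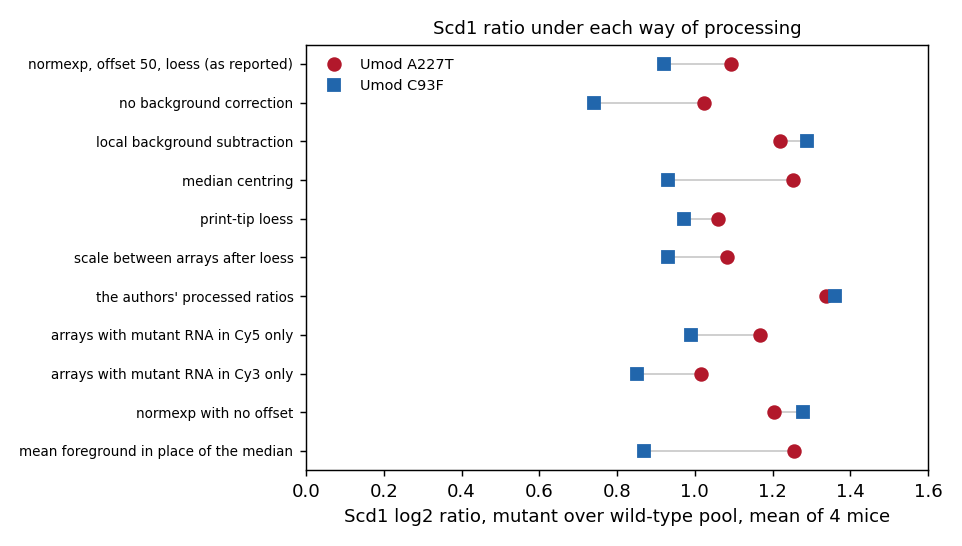
Mean Scd1 log2 ratio of 4 mice in Umod A227T (circles) and Umod C93F (squares) as reported and under 10 alternatives. A227T is above C93F in the reported setting, and C93F is above A227T with local background subtraction, with normexp without offset and in the authors' processed ratios.

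Genes next to Scd1 in its pathway were set beside the share of all tested elements called, 1.79% in A227T and 1% in C93F. A count of 0 in a short list is near these shares. Of the family itself, Scd2, the isoform best known from brain, was on the array with 2 usable elements. In A227T the brighter element gave 0.29, 0.46, 0.52 and 0.65, with a mean of 0.48 ± 0.15 (SD, n = 4) and an adjusted p of 0.00336 in limma, just under the fold threshold. The dimmer element gave 0.24 ± 0.16 (adjusted p = 0.111). In C93F both Scd2 elements were under 2 times the background on 8 of 8 arrays and were not tested. Scd1 and Scd2 are similar in sequence, and spotted cDNA can bind transcripts of both, so a share of either signal from the other gene cannot be told apart.

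None of the tested electron carriers of the desaturase was called by limma. In A227T, 4 of 6 genes listed were tested, 0 were called in either direction (against 1.79% of all tested elements), 1 was lower at an unadjusted p under 0.05 (a threshold that 11.8% of all tested elements passed as higher and 8.59% as lower in A227T, and 14.7% as higher and 17% as lower in C93F), and the median log2 ratio was -0.06, compared with 0.01 over all tested elements. Cyb5a, which encodes cytochrome b5, gave -0.11 ± 0.05 (adjusted p = 0.446) in A227T. In C93F, where no other gene of the list was bright enough to test, its brighter element gave -0.31, -0.46, -0.49 and -0.47 in the 4 mice (mean -0.43 ± 0.08, adjusted p = 0.00028), and the other one gave a mean of -0.48 ± 0.10. Both tested elements of Cyb5a had negative ratios in all 4 C93F mice, short of the fold threshold, and the remaining element was too dim to test. Cyb5r1, a cytochrome b5 reductase, gave -0.46 ± 0.12 (adjusted p = 0.00349) in A227T with its brighter element, while its other element gave 0.19 ± 0.07, so its elements disagreed.

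Among genes of fatty acid and triglyceride synthesis, 22 of 37 listed were tested in A227T and 8 in C93F. In either line limma called 0 (against 1.79% of all tested elements in A227T and 1% in C93F). At an unadjusted p under 0.05, 5 were higher and 1 lower in A227T (against 11.8% and 8.59% of all tested elements), and 1 higher and 2 lower in C93F (against 14.7% and 17%). Their median log2 ratio was 0.07 in A227T, against 0.01 over all tested elements, and 0.02 in C93F, against 0.02. Fasn, the fatty acid synthase, gave 0.25, 0.17, 0.52 and -0.19 in the A227T mice (mean 0.19 ± 0.29, adjusted p = 0.324), and it was too dim to test in C93F. The highest members in A227T were Elovl5, a fatty acid elongase, with 0.36 ± 0.23 (adjusted p = 0.0302), Thrsp, a lipogenic factor also called Spot 14, with 0.35 ± 0.29 (adjusted p = 0.0566), and Acsl4, an acyl-CoA synthetase, with 0.28 ± 0.31 (adjusted p = 0.139). In C93F the member farthest from 0 was Me1, malic enzyme, which supplies NADPH, with -0.29 ± 0.09 (adjusted p = 0.00299). All members tested in a line lay below Scd1 there, which follows from the choice of Scd1 for its high ratios.

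Of 28 listed regulators of Scd1, 17 were tested in A227T with a median of -0.03 and 4 in C93F with a median of 0.00. Of these limma called 0 (against 1.79% of all tested elements in A227T and 1% in C93F). At an unadjusted p under 0.05, 2 were lower in A227T (against 8.59%) and 1 was higher in C93F (against 14.7%). Nr1h3, which encodes LXR alpha, gave 0.07 ± 0.09 (adjusted p = 0.678) in A227T and was too dim in C93F. By the brightest element of each gene, Usf1, an E-box transcription factor, had the largest value in A227T, 0.26 ± 0.55 (adjusted p = 0.364), which rested on 1.07 in mouse 3, while Mlx, the partner of the carbohydrate response factor ChREBP, gave -0.21 ± 0.25. Nfyb, a subunit of the CCAAT-binding factor NF-Y, gave 0.13 ± 0.21 with its brighter and 0.42 ± 0.25 (adjusted p = 0.0192) with its dimmer element. No element named Srebf1, Nr1h2 or Acaca was used here.

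Genes that share regulators with Scd1 gave 1 call. Among SREBP2 and LXR targets, 1 of 11 tested genes rose in A227T (against 0.805% of all tested elements called higher), namely Apoe, the lipoprotein carrier apolipoprotein E, with 0.84, 0.44, 0.31 and 0.88 in the 4 mice (mean 0.62 ± 0.29, adjusted p = 0.0027 in limma). The cholesterol synthesis gene Hmgcs1 gave 0.26 ± 0.11 (adjusted p = 0.0654), and the median of the list was -0.02. In C93F 2 genes of this list were tested by limma and 0 were called (against 1% of all tested elements). None passed an unadjusted p under 0.05 either, and Apoe, at 0.30, was too dim to test. Of the PPAR alpha targets and genes of fatty acid oxidation, 16 were tested in A227T and 5 in C93F, with medians of -0.01 and -0.09. Of these limma called 0 (against 1.79% of all tested elements in A227T and 1% in C93F). At an unadjusted p under 0.05, 4 were higher and 1 lower in A227T (against 11.8% and 8.59% of all tested elements), and 1 higher and 1 lower in C93F (against 14.7% and 17%). Hadha, a subunit of the mitochondrial trifunctional protein, was the highest with 0.33 ± 0.23 (adjusted p = 0.0453) in A227T.

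**Figure D5:**
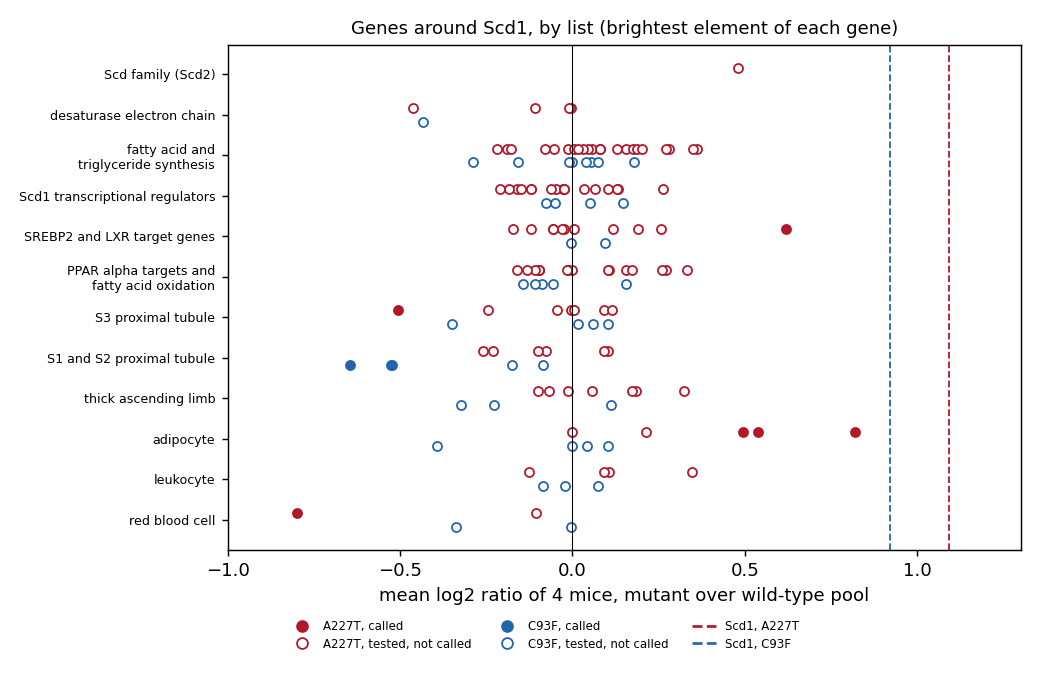
Mean log2 ratio over 4 mice of the tested genes of each list, with called genes filled, in Umod A227T (upper row of each list) and Umod C93F (lower row), and the Scd1 mean of each line as a dashed line. Apoe, at 0.62, is the one called gene of the lipid lists. Scd1 was chosen for its high ratios, so the lower position of the other genes is no evidence.

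None of the tested markers of the straight proximal tubule was called higher (against 0.805% of all tested elements in A227T and 0.0304%, Scd1 alone, in C93F). With so few genes tested, 0 calls is near those shares. Of 12 listed genes 7 were tested in A227T, with a median of 0.00 and 1 called lower (against 0.99% of all tested elements), and 4 in C93F, with a median of 0.04 and 0 called by limma. At an unadjusted p under 0.05, 0 were higher in either line (against 11.8% of all tested elements in A227T and 14.7% in C93F). At that threshold 2 were lower in A227T (against 8.59%) and 1 in C93F (against 17%). Slc22a7, an organic anion transporter, fell in A227T, with -0.68, -0.68, -0.63 and -0.02 (mean -0.50 ± 0.32, adjusted p = 0.0128), and this call was lost without mouse 1, 2 or 3, when the mean was -0.45, -0.45 and -0.46. It was also lost without background correction, at -0.46, and with median centring, at -0.39. Slc5a1, the glucose transporter SGLT1, gave 0.00 ± 0.03 in A227T. Cyp7b1, an oxysterol hydroxylase, gave -0.35 ± 0.10 (adjusted p = 0.00111) in C93F. The summed normalised signal of the markers was 7059 to 8851 in the mutant channel and 6465 to 8923 in the pool channel of A227T mice, and 684 to 975 in the mutant channel and 683 to 986 in the pool channel of C93F mice.

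Among markers of the earlier proximal tubule, calls were made in C93F. In that line 3 of 5 tested markers fell (against 0.972% of all tested elements called lower): Slc34a1, the phosphate transporter, with -0.64 ± 0.05 (adjusted p = 1.76e-05), Slc22a6, the organic anion transporter OAT1, with -0.53 ± 0.06 (adjusted p = 5.43e-05), and Slc13a3, a dicarboxylate transporter, with -0.52 ± 0.07 (adjusted p = 6.74e-05). All 3 calls were lost in the authors' processed ratios, where Slc34a1 was -0.42, Slc22a6 -0.26 and Slc13a3 -0.66. With print-tip loess Slc34a1 was -0.43 and Slc22a6 -0.30, without background correction Slc22a6 was -0.45 and Slc13a3 -0.43, and with mean foreground Slc13a3 was -0.45, each short of the fold threshold. In A227T limma called 0 of 6 (against 1.79% of all tested elements), with 2 lower at an unadjusted p under 0.05 (against 8.59%) and a median of -0.09. For these 3 genes the difference of A227T minus C93F was 0.55, 0.27 and 0.29 (adjusted p = 0.000309, 0.0369 and 0.0192 over 2186 elements, of which 28.5% passed), and for Slc22a8, the fourth marker tested in both lines, it was 0.28 (adjusted p = 0.107). Markers of the thick ascending limb gave 0 calls by limma among 7 tested in A227T and 3 in C93F (against 1.79% and 1%). At an unadjusted p under 0.05, 3 were higher in A227T (against 11.8%). In C93F 1 was higher and 2 were lower at that threshold (against 14.7% and 17%). Umod itself gave -0.07 ± 0.09 (adjusted p = 0.657) in A227T and -0.32 ± 0.13 (adjusted p = 0.00319) in C93F, a difference of 0.25 (adjusted p = 0.0522).

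Some adipocyte markers were called higher beside Scd1 in A227T. Of 18 listed genes 13 had an element, and 5 were bright enough to test. Of these 5 markers 3 rose (against 0.805% of all tested elements called higher), with a median of 0.49 over the 5. Fabp4, the adipocyte fatty acid-binding protein, gave 0.74, 0.76, 1.20 and 0.58 (mean 0.82 ± 0.26, adjusted p = 0.000256). Ucp1, the uncoupling protein of brown fat, gave 0.60, 0.38, 0.62 and 0.55 (mean 0.54 ± 0.11, adjusted p = 0.001). Car3, a carbonic anhydrase abundant in fat, gave 0.92, 0.50, 0.42 and 0.14 with its brightest element (mean 0.49 ± 0.33, adjusted p = 0.0145), but 0.45 ± 0.30 and 0.03 ± 0.16 with the other 2. The Car3 call was lost without mouse 1, at 0.35, without background correction, at 0.47, with print-tip loess, at 0.43, and with scaling between arrays, at 0.47. The Ucp1 call was lost with print-tip loess, at 0.47. Lpl gave 0.21 ± 0.21 and the lipase Pnpla2 0.00 ± 0.10. Adipoq, the defining adipocyte hormone, reached 2 times the background on 3 of 8 A227T arrays and was not tested. By brightest element, the listed members too dim to test gave 0.19 for Adipoq and 0.13 for Retn. Plin1 gave -0.08, Lipe -0.05, Plin4 -0.03, Slc2a4 -0.03, Cidea -0.02 and Cidec -0.005. The summed signal of the 5 markers was 2488 to 3131 in the mutant channel and 1799 to 2404 in the pool channel, higher in the mutant channel of all 4 mice. The part of adipose tissue in the Scd1 ratio of A227T was not tested.

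In C93F no adipocyte marker was called higher, and no element other than Scd1 was (0.0304% of all tested elements). The 4 tested were Car3, Lpl, Plin4 and Pnpla2, a set that differs from that of A227T. Of these limma called 0 (against 1% of all tested elements), and 1 was lower at an unadjusted p under 0.05 (against 17%), with a median of 0.02. Lpl gave -0.39 ± 0.10 (adjusted p = 0.000672). Car3 gave 0.10, Plin4 0.04 and Pnpla2 -0.0006. The summed signal was 622 to 922 in the mutant channel and 655 to 969 in the pool channel. It was lower in the mutant channel of all 4 mice, though in mouse 4 only by 812 against 815. The part of adipose tissue in the Scd1 ratio of C93F was not tested. Fabp4, at 0.07, and Ucp1, at -0.01, did not pass the filter on dim spots, and Adipoq was under 2 times the background on 8 of 8 arrays.

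Markers of leukocytes gave 0 calls by limma among 4 tested in A227T and 3 in C93F (against 1.79% and 1% of all tested elements). The medians were 0.10 in A227T and -0.02 in C93F. At an unadjusted p under 0.05, 1 was higher in A227T (against 11.8%) and 0 passed in C93F. Lyz2, a macrophage lysozyme, was the highest with 0.35 ± 0.11 (adjusted p = 0.0161) in A227T. Of 2 red blood cell markers tested in A227T, 1 was called lower (against 0.99% of all tested elements). This was Hba-a1, an alpha globin, with -0.80 ± 0.26 for its brightest element (adjusted p = 0.000285), and all 5 of its elements tested there were called lower. The other, Alas2, gave -0.10 ± 0.21 (adjusted p = 0.546) in A227T and -0.003 ± 0.10 (adjusted p = 0.974) in C93F. Slc4a1, at 0.01 in A227T, was too dim to test. In A227T mice the log2 ratio of Hba-a1 was -0.67, -0.57, -1.17 and -0.78. Mouse 3 was thus the lowest for Hba-a1 and the highest for Scd1, though its Scd1 arrays gave 1.96 and 0.86. In C93F the brightest tested element of Hba-a1 gave -0.34 ± 0.15 (adjusted p = 0.00374), which did not reach the fold threshold. There mouse 1 was the lowest for Hba-a1, at -0.53, and mouse 2 the highest for Scd1, at 1.11. The part of blood content in the Scd1 ratio was not tested.

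Elements were also compared with Scd1 by the size of their ratios. Since Scd1 was chosen for its high ratios, most elements lie below it by construction. Among the 2186 elements tested in both lines, the smallest mean absolute difference from the 8 Scd1 ratios was 0.46, for the unnamed clone MG-8-12l22, and the next were Gsto1 with 0.50, Abraxas2, a deubiquitinase complex subunit, with 0.56, the unnamed clone MG-3-91d9 with 0.59, Sparc, a matrix glycoprotein, with 0.62, and Serpina1d with 0.63. These gaps average over both lines, so they cannot be set against the SD of Scd1 within a line, 0.25 in A227T and 0.13 in C93F. MG-8-12l22 had a mean of 0.88 ± 0.29 in A227T and 0.22 ± 0.08 in C93F, and Gsto1 0.90 ± 0.29 in A227T and 0.28 ± 0.09 in C93F. Both thus came near Scd1 in A227T and stayed below it by over 0.6 in C93F. Abraxas2 was more even, with 0.53 ± 0.06 in A227T and 0.38 ± 0.17 in C93F. Serpina1d belongs to a family of nearly identical genes, which spotted cDNA cannot separate.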

How the data were processed

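The authors hybridised kidney RNA of single mutant mice against a wild-type pool on spotted two-colour cDNA arrays. They deposited the intensity of each spot and its local background in both channels, with percent of pixels above background and the spot diameter as another measure, as the scanner software gave them and before normalization. They also deposited processed log2 ratios, filtered by the authors, on a log2 scale as judged from the scans. Their direction, which set the sign here, is stated in legends and is likely rather than settled, and their column medians lay between 0.007 and 0.047. Of the 20794 spot positions, 217 whose clone differs between the scans of the lines were left out of the elements.

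In R 4.3.3, limma 3.58.1 corrected the background by normexp (offset 50) and normalised each array by loess. Ratios were turned to mutant over pool, and spots of one clone and then the 2 arrays of a mouse were averaged. Spots passing the brightness filter made up 56.7 to 74.0% in A227T and 15.3 to 42.3% in C93F. The number of arrays limits precision. Elements were tested by limma against 0 or between lines, with Benjamini-Hochberg adjustment over all tested elements. The steps were tested on simulated data. A gene with several elements was counted by its brightest tested element.

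The gene, lists and tests were chosen with earlier results of these data known. Named were Scd1; of each list the called members and up to 3 further with the largest ratio; Scd2, Srebf1, Nr1h2, Nr1h3, Fasn, Acaca and Umod where measured; the 6 elements nearest to Scd1; and those ranked around it. Alternatives were other background corrections, normalizations, filters and thresholds, the authors' ratios, each dye orientation, each mouse left out, and a replicate block. Mean foreground and normexp without offset were chosen after seeing the data. Nothing states that the mice of a line came from separate litters, and p-values measure the spread between these mice.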

Additional observations from a re-analysis of the deposited data

Results flagged for a closer look

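In groups of 4 mice, 1 animal stood apart from the other 3 for 3 of the named elements, and chance alone sets a sample apart in about 1 in 20 groups. The number of groups examined is not given here, so no excess over that rate can be read from the count. For Slc22a7 in A227T, mouse 4 had -0.02 against -0.63 to -0.68 in the other 3, a gap of 0.917 of the range. For MG-8-12l22 in C93F it was mouse 3, with 0.965 of the range, and for Gsto1 in C93F mouse 4, with 0.857. Scd1 itself was not among them in either line.

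Several named elements differed between A227T and C93F by limma over all 8 mice, at an adjusted p under 0.1. Of the 2186 elements tested in both lines, 28.5% passed that threshold. Line, age, zygosity and hybridisation series cannot be told apart. The log2 difference of A227T minus C93F was 0.662 for MG-8-12l22, 0.619 for Gsto1, 0.546 for Slc34a1, 0.421 for MG-3-91d9, 0.396 for Sparc, 0.292 for Slc13a3, 0.265 for Slc22a6 and 0.253 for Umod. For 4 elements of Hba-a1 it was -0.519, -0.493, -0.481 and -0.422. Other elements named above passed as well. Among them were Lpl with 0.605 (brightest element), Nfyb with 0.468 (dimmer element), and Cyb5a with 0.382 and 0.376. Lyz2 gave 0.369, Cyp7b1 0.305 and Elovl5 0.305.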

How the results depend on the processing

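The Scd1 ratio stayed above 0 in both lines in every alternative run. Over the alternatives other than leaving out a mouse, the A227T mean ran from 1.02 to 1.34 and the C93F mean from 0.74 to 1.36. Leaving out each mouse gave Scd1 means of 0.99 to 1.17 in A227T and 0.86 to 0.96 in C93F, a line difference of 0.07 to 0.25, 157 to 193 called elements in A227T and 33 to 37 in C93F, 5 to 7 called list members in A227T and 3 to 3 in C93F, and 473 to 676 elements differing between lines. As reported the counts were 165, 33, 6, 3 and 622. Background treatment moved most values, and the cause was not tested. Local background subtraction gave 1.29 for Scd1 in C93F, a line difference of -0.068, 287 elements called in A227T and 72 in C93F, and 10 and 5 list members. Normexp without offset gave 1.28 for Scd1 in C93F, a line difference of -0.076, 276 and 68 elements, and 10 and 5 list members. No background correction gave 0.74 for Scd1 in C93F, 21 elements and 1 list member called there. The authors' processed ratios gave 1.36 for Scd1, 9 elements and 0 list members called in C93F. Mean foreground gave a line difference of 0.39, and print-tip loess 1 list member called in C93F. The stricter filter, which tests fewer elements, left 103 called in A227T, 20 in C93F and 294 differing. Median centring turned the split in A227T to 139 higher and 59 lower, against 74 and 91 as reported, and the authors' ratios gave 136 and 103. The replicate numbers mark no pairing, since same-numbered mice of the lines did not deviate together (r between -0.06 and 0.00), and a replicate block left the Scd1 difference at 0.17, with 600 elements differing in place of 622. The planned comparison with another Scd1 element was not run, as there is only the one.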
